A study of Eucalyptus grandis and Eucalyptus globulus with 10 samples.

Results

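Xylem transcripts that were higher in E. grandis than in E. globulus, whichever clones were compared, are described here across all arrays of the study. Of 21413 array features, 191 (0.892%) had a log2 value at least 1 unit higher in E. grandis xylem than in E. globulus xylem however the clones were paired, which makes 4 pairs with each clone taken as the mean of 2 trees. A feature stands for 1 Eucalyptus transcript, read by up to 9 probe pairs per block on an array of 2 blocks, and a log2 unit is a 2-fold difference. All 191 had 9 probe pairs. The features carry IDs only: 0 of the 21413 IDs matched the reference gene list and the files used here pair no ID with a gene, so no gene or function is named, and the tissue labels could not be checked against marker genes.

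The study measured total RNA from field-grown trees that were 4 years old and grew at 1 site. The 10 samples formed 5 groups of 2 trees, in which mature leaf blade without the central vein came from E. grandis clone A, and differentiating xylem, scraped from the debarked trunk, came from E. grandis clones B and A and from E. globulus clones B and A. The trees of a clone, called ramets, share a genotype, the leaf and xylem of clone A came from the same trees, and clone letters are not shared between species. Each species was thus represented by 2 genotypes. Ramets are separate trees, so p-values based on them measure the spread between trees of a genotype and not that between genotypes.

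Differentiating xylem is the young wood inside the cambium, where cells expand, lay down secondary walls of cellulose, hemicelluloses and lignin, and then die to leave conducting vessels and fibres. Eucalypts are grown for this wood, and E. globulus is known in pulping for wood of lower lignin content than that of E. grandis. A mature leaf blade is mainly photosynthetic tissue with fine veins. In whole tissue, fewer cells of a type and less RNA per cell cannot be told apart. Nor can a lower transcript level in E. globulus be told apart here from a poorer match of its transcripts to the probes.

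Medians of the 10 arrays lay between 221 and 237 expression units. On the array of leaf ramet 1 the blocks disagreed most, by 0.587 log2 units (SD), where the rest had 0.285 to 0.364. Array numbers fell into a later series of 4 arrays (both leaf arrays, E. grandis clone B xylem ramet 2 and clone A xylem ramet 1) and an earlier series of 6, which held all E. globulus arrays. A deposited table of the whole series disagreed with the per-array files on which sample is which. Of its 10 columns, 9 held the values of another sample's file, 8 of these from the other species, and the columns as a whole ran in ascending order of array number. The results rest on the per-array files. With the table's columns taken as named, 553 features met the rule, and only LYPTUS00S00005462 was shared with the 191.

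The species differences that chose the 191 features were mostly moderate and in a few cases very large. The smallest of a feature's 4 clone-pair differences had a median of 1.33 log2 units (quartiles 1.14 and 1.63), against -0.29 over all features, and exceeded 1.5 units in 66 features. A difference of at least 4-fold in every pair was reached by 20 features, and one of at least 8-fold by 5. These values are a description of what the rule chose.

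LYPTUS00S00014632 had the widest gap. Its log2 values were 13.90 and 13.33 in E. grandis clone B xylem and 13.85 and 14.14 in clone A xylem, against 5.70 and 5.93 in E. globulus clone B and 5.53 and 5.94 in E. globulus clone A. The lowest E. grandis array thus lay more than 7 units above the highest E. globulus array, and the leaf arrays, at 13.23 and 12.75, were lower than clone A xylem by a log2 difference of -1.01 (SE 0.306, limma adjusted p 0.0302) but far above E. globulus. LYPTUS00S00002727 averaged 12.33 ± 0.17 in E. grandis xylem, against 6.66 ± 0.20 in that of E. globulus (SD over 4 arrays each). Its leaf values, 9.80 and 9.51, stood between the species.

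The other features with at least 8-fold differences were singled out after their values were seen. LYPTUS00S00015011 averaged 13.73 ± 0.17 in the xylem of E. grandis, against 7.95 ± 0.23 in that of E. globulus, with leaf values of 12.69 and 14.22. LYPTUS00S00001304 averaged 11.32 ± 1.44 in E. grandis, against 6.13 ± 0.35 in E. globulus, its wide spread in E. grandis coming from a gap between the clones described below. LYPTUS00S00015897 averaged 9.93 ± 0.55 in E. grandis, against 6.35 ± 0.25 in E. globulus (SD, n = 4 each), and its leaf values of 6.84 and 5.80 were at the E. globulus level. These 5 features therefore shared the species gap in xylem but not a leaf level.

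**Figure D1:**
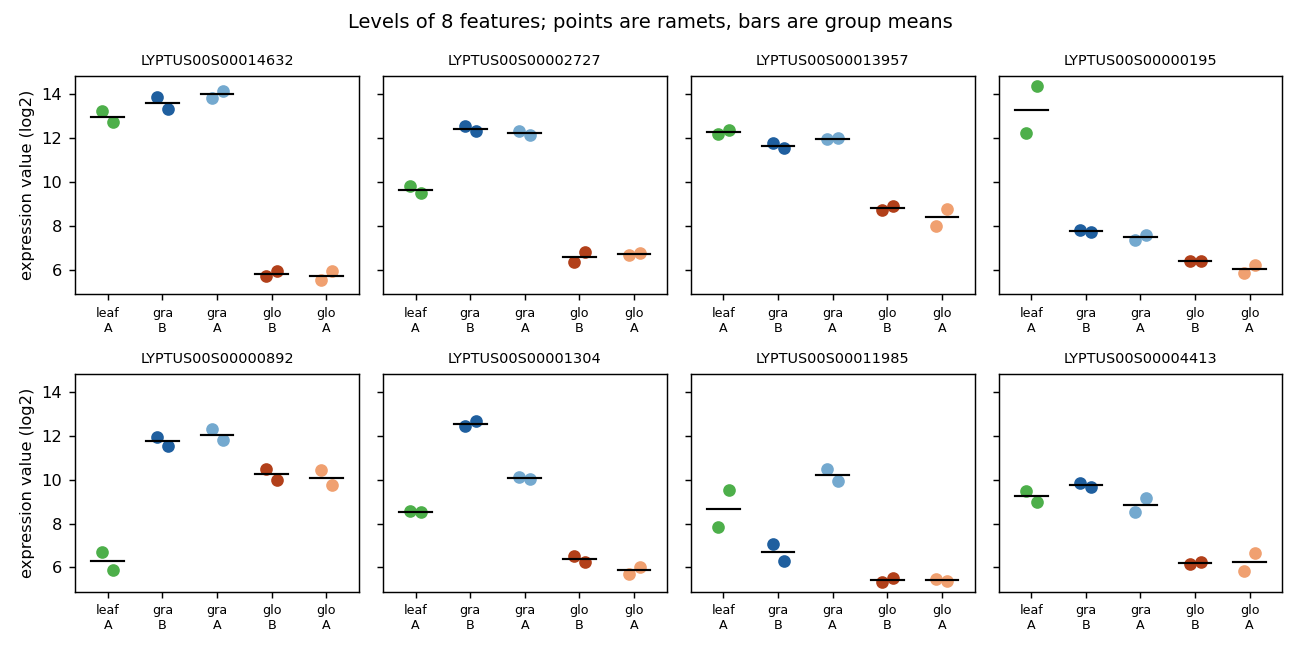
Log2 expression value (vertical axis) of 8 features in leaf of E. grandis clone A, xylem of E. grandis (gra) clones B and A and xylem of E. globulus (glo) clones B and A. Points are single trees and bars are means of 2 trees. In every panel the E. grandis xylem points lie above the E. globulus points, while leaf ranges from 5.88 for LYPTUS00S00000892 to 14.39 for LYPTUS00S00000195.

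At the threshold the set has no natural edge: 37 features had a smallest difference from 1 to 1.1 and 57 one from 0.9 to 1. Just inside, LYPTUS00S00018750 was at 12.27 and 11.48 in E. grandis clone B and 12.61 and 12.27 in clone A, against 10.49 and 9.73 in E. globulus clone B and 11.58 and 10.17 in clone A, so that its arrays overlapped between the species. LYPTUS00S00004222, also just inside, averaged 11.64 ± 0.29 in E. grandis and 10.37 ± 0.47 in E. globulus. Just outside, LYPTUS00S00017407 averaged 9.75 ± 0.21 in E. grandis, against 7.82 ± 1.38 in E. globulus, and LYPTUS00S00002086 averaged 9.63 ± 0.17 in E. grandis and 8.45 ± 0.21 in E. globulus (SD, n = 4 each).

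All 4 E. grandis xylem arrays lay above all 4 E. globulus arrays for 187 of the 191 features (6.97% of all features), and by at least 1 log2 unit for 72 (0.336%). The rule used these arrays, so neither count is evidence about the set. The 4 features with overlapping arrays were LYPTUS00S00018750, LYPTUS00S00002118, LYPTUS00S00016217 and LYPTUS00S00017341. In LYPTUS00S00002118 the E. globulus values spread most, from 6.62 in clone B ramet 2 to 10.51 in clone B ramet 1, against 9.92 to 12.40 in E. grandis. With clones as random blocks in limma, 180 of the 191 were called higher in E. grandis (1.92% of all features). That call uses the contrast of the rule and is read no further, and it fell to 54 without E. globulus clone A ramet 2.

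On single arrays, the median of the 191 features was 9.80 and 9.50 in E. grandis clone B xylem and 10.21 and 9.98 in clone A xylem, against 7.85 and 7.72 in E. globulus clone B and 7.99 and 7.68 in E. globulus clone A. In leaf it was 8.50 and 8.67, between the species. Between 87.4% and 95.3% of the features were above the array median on the E. grandis xylem arrays, against 46.1% to 53.9% on those of E. globulus. The median SD between ramets was 0.251 in E. grandis clone B xylem and 0.237 in clone A xylem for the members, against 0.188 and 0.153 over all features. For E. globulus it was 0.243 in clone B and 0.335 in clone A, against 0.156 and 0.320. For leaf it was 0.372, against 0.366. In E. globulus the members were spread over the range of brightness but sparse at its dim end, and in E. grandis they lay in its upper part. By mean E. globulus xylem level, 7 members were in the dimmest of 10 bins of equal size over all features, and 15 to 27 in each other bin. With all features ordered by mean E. grandis xylem level and cut into 10 bins of equal size, 66 of the 191 were in the brightest bin, 46 in the next and 10 in the lowest 5 bins together.

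**Figure D2:**
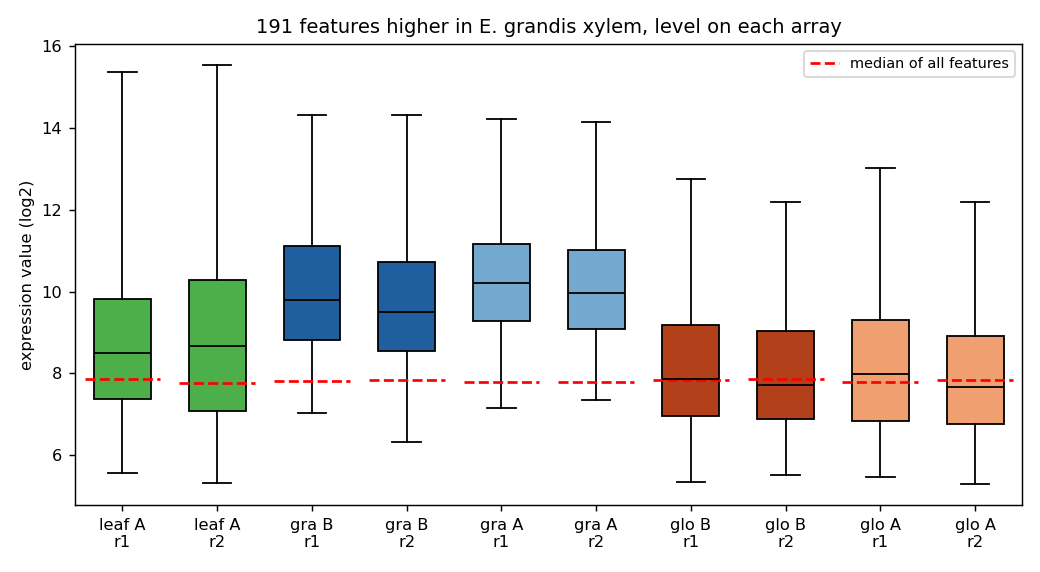
Log2 expression value (vertical axis) of the 191 features on each of the 10 arrays (horizontal axis: leaf, E. grandis xylem, E. globulus xylem; r1 and r2 are ramets). Boxes span the quartiles with the median as a line, whiskers reach the lowest and highest feature, and the dashed line is the median of all features. The medians of the features are 9.50 to 10.21 on E. grandis xylem arrays and 7.68 to 7.99 on E. globulus arrays, near the dashed line.

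A feature was counted as dim in E. globulus when it was below the array median on all 4 E. globulus arrays. This held for 74 of the 191 features, 38.7%, against 42% of all features. A further 77 were above the array median on all 4, and 40 were in between. Under a stricter limit, the lower quartile of each array, 21 features were dim on all 4 E. globulus arrays, 11%, against 18.4% of all features. The E. globulus arrays were also used to choose the features, and the share below the median is near that of all features, so these shares only describe the set. Background was not measured in the files used here, so dim does not mean absent.

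Among the 74 dim features the median level was 8.67 in E. grandis and 6.69 in E. globulus, and 13 had a smallest difference of at least 2 log2 units. Among the 77 features that were not dim it was 11.05 in E. grandis and 9.38 in E. globulus, and 3 had such a difference. The leading features that were not dim were LYPTUS00S00013957, at 11.78 and 11.54 in E. grandis clone B and 11.94 and 12.03 in clone A, against 8.74 and 8.91 in E. globulus clone B and 8.01 and 8.77 in clone A, and LYPTUS00S00018186. LYPTUS00S00018186 averaged 11.39 ± 0.34 in E. grandis and 8.85 ± 0.33 in E. globulus (SD, n = 4 each). For neither did arrays of the species overlap. In leaf LYPTUS00S00013957 stayed near its xylem level, at 12.18 and 12.37 (log2 difference from clone A xylem 0.29, limma adjusted p 0.601), and LYPTUS00S00018186 was lower, at 9.74 and 10.88 (difference -1.29, limma adjusted p 0.0312). At the dim end, 3 features were below the array median even on all 4 E. grandis arrays, namely LYPTUS00S00017687, LYPTUS00S00021204 and LYPTUS00S00021369, with E. grandis means of 7.44, 7.35 and 7.20 against E. globulus means of 6.11, 5.89 and 5.64.

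The opposite set, features higher in E. globulus by the same rule, is of like size and of like brightness in xylem. It holds 180 features, of which 66 (36.7%) were below the array median on all 4 E. grandis arrays, where 42.8% of all features were. Its median level over E. globulus xylem was 9.85, close to the 9.83 of the 191 features over E. grandis xylem. The share of features that were dim in the lower species was thus 38.7% for the E. grandis-higher set and 36.7% for the E. globulus-higher set. A difference between these shares was not tested. In leaf the sets differed, with a median log2 difference from clone A xylem of -0.02 in the opposite set and -1.27 in the 191. Leaf was over 1 log2 unit lower for 16.1% and 58.6%, against 13.2% of all features. The rule picked low E. grandis xylem values for the opposite set and high ones for the 191, and this difference was not tested either.

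The leaf arrays took no part in choosing the features and show how the set behaved in another tissue of E. grandis. In leaf, most of the 191 transcripts were lower than in xylem of the same clone, and a few were far higher. Of the 191, 107 (56%) were lower in leaf than in clone A xylem and 16 (8.38%) were higher in limma with 1 mean per group over all arrays, Benjamini-Hochberg adjusted p under 0.05. Over all features 13.3% were lower and 11.8% higher. The median log2 difference of leaf from xylem was -1.27 (quartiles -2.53 and -0.44) in the set and 0.04 over all features. The clone A xylem arrays helped to choose the set, so these counts are not independent of the rule. The called falls ran from -0.89 to -5.77 with a median of -2.37, and the called rises from 0.81 to 5.83. Of the features lower in leaf, 44 were dim in E. globulus, 17 in between and 46 not dim. Of the 16 features higher in leaf, 6 were dim, 3 in between and 7 not dim. For all 16 both leaf arrays also lay above every E. globulus array, which the rule and the call together make nearly certain.

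Features were also chosen without clone A, on E. grandis clone B at least 1 log2 unit above both E. globulus clones. Of these 319 features, which include the 191, 159 (49.8%) were lower and 34 (10.7%) higher in leaf than in clone A xylem. The median difference of the 319 was -1.01, although no clone A array entered the choice. They were still chosen for high levels in E. grandis xylem, so choice and reading are separated only in part. Both trees of clone A gave the same direction for most of the 191: 139 (72.8%) were lower in leaf in both trees and 25 (13.1%) higher, against 29.7% and 28.5% of all features. The tree-wise medians were -1.45 for ramet 1 and -1.12 for ramet 2. In the later array series alone, which held both leaf arrays and 1 clone A xylem array, 71 features were called lower and 7 higher, against 6.54% and 5.99% of all features. In that fit the leaf pair alone gave the spread, and the lone xylem array is assumed to vary like it. The count of 16 higher features became 9 without clone A xylem ramet 1 and 8 without its ramet 2, while that of lower features stayed between 84 and 110 when any 1 array was left out.

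**Figure D3:**
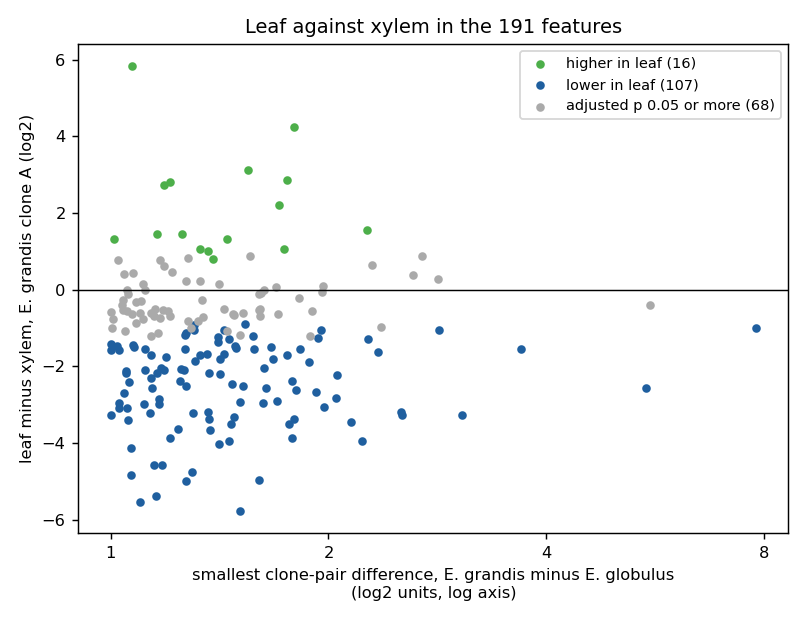
Leaf minus xylem of E. grandis clone A (vertical axis, log2) against the smallest of the 4 clone-pair differences of E. grandis from E. globulus (horizontal axis, log2 units on a log axis) for the 191 features. Colour marks the limma call, with 16 higher in leaf, 107 lower and 68 with an adjusted p of 0.05 or more. Blue points fill the range down to -5.77, and only a few green points lie above 3.

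The strongest rise in leaf belonged to LYPTUS00S00000195, at 12.22 and 14.39 in leaf, against 7.35 and 7.60 in clone A xylem. In clone B xylem it was at 7.83 and 7.70, and in E. globulus between 5.84 and 6.41, so its xylem values were near the array median in E. grandis and below it in E. globulus. The log2 difference of leaf from xylem was 5.83 (SE 0.519, limma adjusted p 6.87e-06). This was the 1 feature of the set (0.524%, against 0.943% of all features) at least 16-fold higher in leaf in both trees. LYPTUS00S00012502 was at 15.36 and 15.54 in leaf, against 11.45 and 10.98 in clone A xylem, a difference of 4.24 (SE 0.372, limma adjusted p 6.22e-06). It was above the array median on every array, including those of E. globulus (8.17 to 9.78).

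The strongest fall was that of LYPTUS00S00000892, at 6.69 and 5.88 in leaf, against 12.32 and 11.80 in clone A xylem, a difference of -5.77 (SE 0.365, limma adjusted p 6.18e-07). LYPTUS00S00005462 followed at 6.52 and 5.58 in leaf, against 11.83 and 11.31 in clone A xylem, a difference of -5.52 (SE 0.437, limma adjusted p 2.86e-06). Both were bright in the xylem of E. globulus too, from 9.77 to 10.50 and from 9.93 to 11.00. Their leaf values were at least 3 log2 units below every xylem array of either species. In all, 9 of the 191 features (4.71%) were at least 16-fold lower in leaf in both trees, against 0.761% of all features.

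Leaf of E. grandis can also be set beside E. globulus xylem, although tissue and species then differ together. Both leaf arrays lay above all 4 E. globulus arrays for 94 of the 191 features (49.2%), against 20% of all features. They lay below all 4 for 44 (23%), against 23.3% of all features, and overlapped for 53. The same holds in part for the 319 features chosen on clone B alone, of which 129 (40.4%) had both leaf arrays above all E. globulus arrays. In the E. globulus-higher set the corresponding shares were 4.44% above and 83.9% below. These shares share the E. globulus arrays with the rule, which picked low E. globulus values for the 191 and high ones for the opposite set, and are given as a description.

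Among the members, the position of leaf differed with brightness in E. globulus. Of the 74 dim features, 46 had both leaf arrays above all E. globulus arrays and 9 below, whereas of the 77 features that were not dim 30 lay above and 31 below. Part of this contrast is set by the E. globulus values themselves, which define both classes. Of the 74, 28 were above the array median on both leaf arrays and 35 below it on both. The same counts were not taken over all features of each brightness class. They therefore describe the members and show no trait particular to the set. LYPTUS00S00009434 and LYPTUS00S00004413 were the dim features whose leaf level was closest to that of E. grandis xylem. LYPTUS00S00009434 was at 7.82 and 8.63 in leaf, at 8.56 and 7.87 in clone B xylem and at 8.50 and 7.94 in clone A xylem, against 6.40 to 6.78 in E. globulus. LYPTUS00S00004413 was on average at 9.24 in leaf, at 9.83 and 9.66 in clone B xylem and at 8.54 and 9.16 in clone A xylem, against 5.83 to 6.64 in E. globulus. In both, all 6 E. grandis arrays, leaf included, lay above all 4 E. globulus arrays. Both were picked for this leaf level among members already higher in E. grandis xylem, so the choice nearly fixes that separation.

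**Figure D4:**
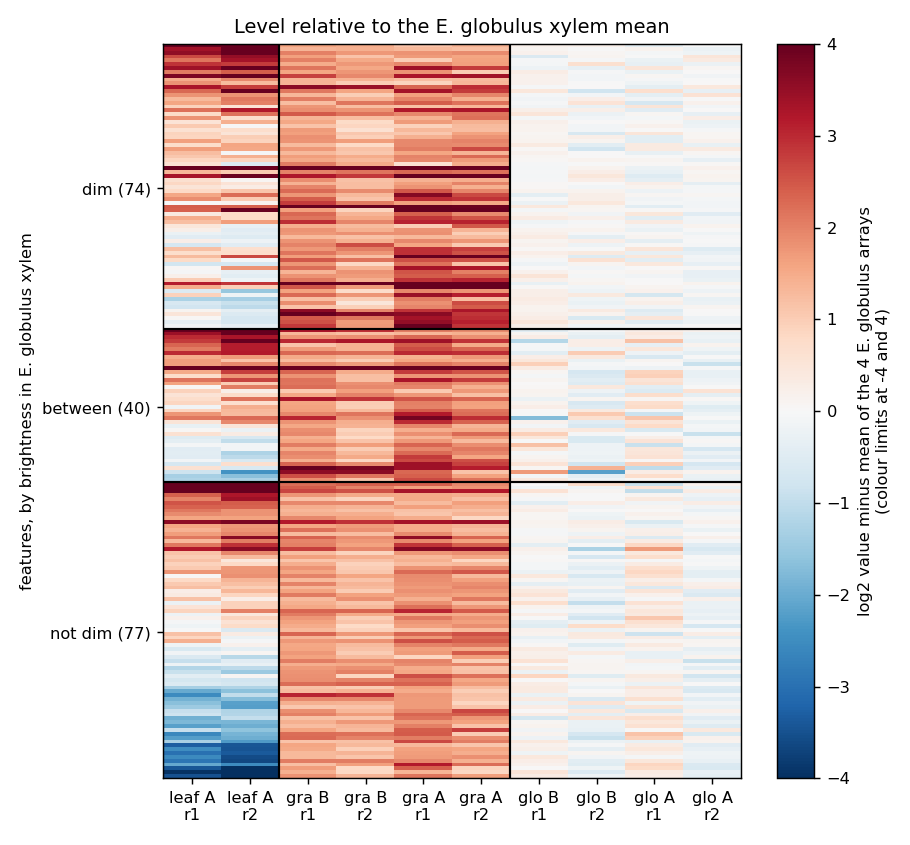
Log2 value minus the mean of the 4 E. globulus xylem arrays (colour, cut at -4 and 4) for the 191 features (rows) on the 10 arrays (columns: leaf, E. grandis xylem, E. globulus xylem). Rows are split into the 74 features dim in E. globulus, the 40 in between and the 77 not dim, and ordered within each by leaf minus clone A xylem. The E. grandis xylem columns are red throughout by the rule, while the leaf columns run from dark red to dark blue, with the blue rows mainly among the features that are not dim.

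The lists that each E. grandis clone gives on its own differ in length. Clone A alone met the rule against both E. globulus clones for 962 features and clone B alone for 319, so the 191 features are 59.9% of the clone B list and 19.9% of the clone A list. The smallest of the 4 differences involved clone B for 134 of the 191 features. They were the features (70.2%) with a lower mean in clone B than clone A, where 41.7% of all features were lower. The median log2 difference of clone B from clone A was -0.31 in the set and 0.07 over all features. The rule used these arrays, and the smallest difference always involves the lower clone, so these values describe the members and support nothing further.

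Between the E. grandis clones, 29 of the 191 (15.2%) had clone means at least 1 log2 unit apart, against 6.62% of all features, and 41 (21.5%) had an unadjusted limma p under 0.05, against 13%. After adjustment limma called 6, with 1 higher in clone B (0.524%, against 0.626% of all features) and 5 lower (2.62%, against 0.705%). The same xylem arrays chose the members, so these shares are not independent of the rule and only describe the set. LYPTUS00S00001304 was the higher one, at 12.46 and 12.66 in clone B xylem, against 10.11 and 10.04 in clone A xylem, a log2 difference of 2.49 (SE 0.258, limma adjusted p 0.00226). It was still more than 3 log2 units above every E. globulus array in either clone. LYPTUS00S00011985 was at 7.08 and 6.31 in clone B xylem, against 10.50 and 9.92 in clone A xylem, a difference of -3.51 (SE 0.471, limma adjusted p 0.00757). Clone B was thus closer to E. globulus, at 5.34 to 5.51, than to clone A, whose leaf was at 7.83 and 9.52. LYPTUS00S00018756 was at 8.64 and 8.16 in clone B xylem, against 10.93 and 11.06 in clone A xylem, a difference of -2.60 (SE 0.426, limma adjusted p 0.0154).

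The remaining 3, named because they complete the count, were LYPTUS00S00020506, LYPTUS00S00006932 and LYPTUS00S00002445, with differences of -1.63, -1.95 and -1.48 and limma adjusted p of 0.0381, 0.0139 and 0.0365. LYPTUS00S00020506 was at 9.68 and 9.26 in clone B xylem, against 11.16 and 11.05 in clone A xylem, and in both clones far above E. globulus, at 5.94 to 6.89. LYPTUS00S00002445 was at 9.11 and 8.50 in clone B xylem, against 10.32 and 10.26 in clone A xylem, with E. globulus close below clone B at 7.50 to 7.89. In these 3, as in LYPTUS00S00011985 and LYPTUS00S00018756, the arrays of the clones did not overlap. Within the earlier and the later array series, each with 1 array per clone, the difference was 2.42 and 2.56 for LYPTUS00S00001304, -2.84 and -4.19 for LYPTUS00S00011985 and -2.42 and -2.77 for LYPTUS00S00018756. These calls rest on few arrays. LYPTUS00S00020506 and LYPTUS00S00002445 lost their calls with the array series as a block (limma adjusted p 0.0795 and 0.0722) and with the ramet number as a block (0.0612 and 0.0568). None of the 5 lower calls held without clone B ramet 2, without clone A ramet 1 or without clone A ramet 2, 2 held without clone B ramet 1, and the higher call was lost without clone B ramet 2. Without either E. globulus clone B array 3 features were called lower, and without either leaf array 13 lower and 3 higher. Over the 8 xylem arrays alone, 13 features were lower and 3 higher in clone B. This is the same fit as without a leaf array, because a lone leaf array adds nothing to the spread. Shares over all features were not taken for it, so its counts only describe the members.

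Between the E. globulus clones limma called 0 of the 191, where 0.014% of all features were higher and 0.00934% lower in clone B, so that no call among the members is what the background gives. Of the 191, 8 (4.19%) had an unadjusted p under 0.05, against 5.67% of all features. The median log2 difference of clone B from clone A was 0.01. The clone means were at least 1 log2 unit apart for 5 features (2.62%, against 1.62% of all features), LYPTUS00S00002098, LYPTUS00S00006040, LYPTUS00S00007968, LYPTUS00S00017313 and LYPTUS00S00017357, which were picked out after their values were seen. LYPTUS00S00007968 had the largest difference, with 8.23 and 9.57 in clone B and 7.14 and 7.71 in clone A, a difference of 1.47 (SE 0.466, limma adjusted p 0.748).

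The species gap could be read on trees that did not choose the features. Chosen on the ramet 1 arrays alone, 185 features met the rule. On the ramet 2 arrays, 116 of these (62.7%) again differed by at least 1 log2 unit in each of the 4 clone pairs, against 1.03% of all features. E. grandis was above E. globulus in every pair for 180 (97.3%), against 24.3% of all features. Chosen on ramet 2 and read on ramet 1, 116 of 220 features (52.7%) met the rule again, against 0.864% of all features, and 214 (97.3%) kept the direction in every pair, against 18.3%. The median smallest difference was 1.18 on the ramet 2 arrays, against 1.37 on the ramet 1 arrays that chose the features. Ramets share a genotype, so these values speak to other trees of the same 4 genotypes and not to other genotypes of the species.

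**Figure D5:**
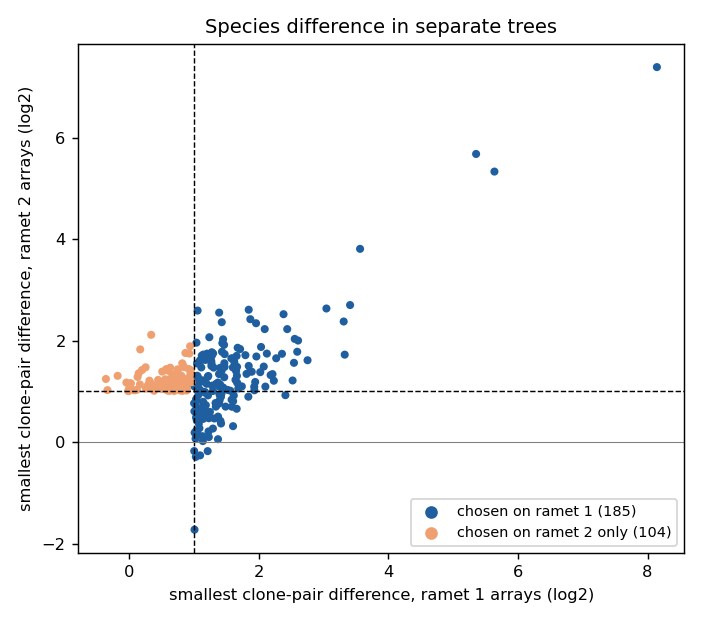
Smallest of the 4 clone-pair differences (E. grandis minus E. globulus, log2) on the ramet 1 arrays (horizontal axis) and on the ramet 2 arrays (vertical axis) for the 289 features that meet the rule on either set of trees. Dashed lines mark the threshold of 1 and the grey line 0. Of the 185 blue points, 116 lie above the dashed horizontal line and 5 at or below 0, the lowest at -1.73.

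The size of the set moved with the arrays used. On the earlier array series alone, with 1 array for each E. grandis clone, 267 features met the rule. They include 175 of the 191, an overlap largely fixed by the choice, since these 6 arrays are among the 8 that chose the members. With 1 xylem array left out in turn, between 150 and 275 features met the rule. The count was lowest without E. grandis clone B ramet 1 or E. globulus clone A ramet 2, and highest without E. grandis clone B ramet 2. The rule held in block 1 alone and in block 2 alone for 143 of the 191. By feature number the members were spread over the whole range, with 12 to 30 in each of 10 equal bins and 0 pairs of consecutive numbers.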

How the data were processed

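RNA of the 10 samples was labelled with Cy3 and hybridised to 1 array each. Per the file headers, the deposited expression value is an intensity per feature and block, made with RMA per the submitters' processing notes. RMA summarises the brightness of a feature's probes. The sources used here do not give its version or whether arrays were normalised jointly. A deposited score of unsettled meaning beside each value, and the number of probe pairs, come from the same files per the file headers, and the score was not used. The deposited table of the series holds the same intensity values times 10000, as linear means of the 2 blocks, matched within 0.001 units. The medians of its columns ran from 2212800.5 to 2373949.5. It was not centred. On the per-array labels, log2 values of ramets of 1 clone correlated at 0.949 to 0.981 in xylem and 0.906 in leaf. Leaf with xylem gave 0.604 to 0.747. By the column names of the table, each E. globulus clone would consist of such a leaf array and a xylem array. Which sample the submitters meant for each column is not settled.

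The intensities were put on the log2 scale and the blocks averaged, with no further normalisation or filter. Limma 3.58.1 (R 4.3.3) was fitted to all 21413 features with 1 mean per group (5 residual degrees of freedom), or for species with clone as a random block (estimated correlation 0.219). P-values were adjusted by Benjamini-Hochberg with a threshold of 0.05. The number of arrays limits precision. The fit was also run on simulated data with normal noise and no effect of tree or array series. That run does not test how the fit behaves on these data. Tables and plots were made with Python 3.11.15, pandas 2.3.3 and matplotlib 3.10.9.

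The members, lists and tests were chosen with earlier results of these data known. Named were the 2 members of largest smallest difference among those dim and among those not dim in E. globulus, up to 2 with the largest called difference each way per contrast, 2 on each side of the threshold, 2 dim members with leaf closest to E. grandis xylem, and features needed to complete counts of 5 or fewer. Leaf and xylem with the same ramet number are the same tree per the labels. Their ramet differences correlated at -0.354 over all features. Pairs of groups from different trees gave -0.396 to 0.642, so this value does not speak to the pairing by tree. The effect of a block for the tree is given with the other alternatives.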

Additional observations from a re-analysis of the deposited data

Results flagged for a closer look

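Among 68 sets of 4 xylem arrays searched for an array far from the other 3 (33 named features and the median of the 191, in each species), 1 was found. By chance about 1 in every 20 sets would give such an array, so 1 among 68 is no excess. LYPTUS00S00004222, a feature just inside the threshold, was at 12.07 in xylem of E. grandis clone A ramet 1, while the remaining 3 E. grandis trees had 11.45 to 11.52.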

How the results depend on the processing

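The 191 features became 798, 66 and 20 at thresholds of 0.5, 1.5 and 2 log2 units, 72 when every E. grandis array had to exceed every E. globulus array by 1 unit, and 553 (1 shared) in the series table with its columns as named. Quantile normalisation gave 200 features (184 shared), centring on array medians 203 (189 shared), and single blocks 199 and 185. Leaving out a xylem array gave 150 to 275. Of the 74 dim features 21 were below the lower quartile, and the table as named gave 3. The counts in leaf against xylem, 107 lower and 16 higher, became 71 and 7 in the later array series, 95 and 10 over the 4 clone A arrays, 0 and 0 in the table as named, and 159 and 34 for the features chosen on clone B alone, a longer list chosen after seeing the data. They ranged from 84 to 110 and from 8 to 17 without 1 array. With the tree as a replicate block they were 106 and 15, with the ramets crossed 111 and 19, and with the array series as a block 88 and 11. Those counts for clone B against clone A of E. grandis, 5 lower and 1 higher, became 13 and 3 over the 8 xylem arrays, 3 lower with the ramet number as a replicate block or the array series as a block (without LYPTUS00S00020506 and LYPTUS00S00002445 in either), 2 higher after quantile normalisation, and 0 and 3 in the table as named, with 0 to 13 and 0 to 3 without 1 array. Ramet numbers of different clones share only a number. In E. globulus the count stayed at 0 throughout. The species call of 180 became 104 with clone means as the unit, 130 with the array series as a covariate, and 54 to 189 without 1 array. Leaf over 1 log2 unit lower than xylem held for 112 features (58.6%, against 13.2% of all features), and for 107 to 116 without 1 leaf array. In the table as named, LYPTUS00S00000892 reversed in leaf against xylem (limma adjusted p 1), and LYPTUS00S00011985, LYPTUS00S00018756, LYPTUS00S00020506, LYPTUS00S00006932 and LYPTUS00S00002445 reversed between clones (limma adjusted p 0.302, 0.297, 0.092, 0.298 and 0.532). There the columns hold other samples' files, which by itself changes every comparison. For the other changes the cause was not tested, except where fewer arrays or another threshold make up the alternative.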
